A study of Mus musculus with 29 samples.

Results

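The 10 immediate-early genes described here, Fos, Fosb, Jun, Junb, Jund, Egr1, Ier2, Atf3, Dusp1 and Klf6, were taken by symbol from the 55376 gene symbols counted in each RNA-seq library of hematopoietic stem cells (HSCs). The rule used names alone, not measured values, and all 10 were among the 33690 genes that passed the filter on low counts. Immediate-early genes are transcribed from factors that a cell already holds, so that a growth factor, cytokine or stress signal reaches them without new protein synthesis. Serum response factor and CREB, activated through MAP kinases and other kinases, are the classic regulators of their promoters. FOS and JUN proteins pair to form the AP-1 transcription factor, and in blood cells AP-1 genes are known to respond to cytokines and also to the handling of tissue.

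The 19 libraries fell into 4 groups by genotype and age as labelled. HSCs of young wild-type mice (YWT) gave 4 libraries, old wild-type HSCs (OWT) 4, young Gadd45b knockout HSCs (YKO) 4 and old Gadd45b knockout HSCs (OKO) 7. The knockout was a whole-animal allele of a strain bred and aged at the study's own facility, the sorted cells were lineage-negative, c-Kit+, Sca1+, CD34-, Flk2- and CD150+, and no treatment other than age and genotype was labelled. The labels give female for each library, whereas the study's own table gives both sexes for YWT, YKO and OKO. Nothing states that the libraries of a group came from separate mice, so p-values measure the spread between libraries.

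Library totals ran from 22197555 to 77970627 counts, with a median of 57562473. All 10 HSC markers examined were counted in every library, with a summed level of 1901 to 4406 CPM (reads scaled to a common library size). CPM of single genes and of the 10 genes together used TMM factors. All summed cell type markers were scaled to the library total without TMM factors. The titles of the OWT libraries and of OKO4 to OKO7 carry the prefix IB15 and the others do not, which matches the 2 sequencing batches of the study's table where that table could be matched. Age in WT could therefore be separated from batch only through the OKO libraries, the single group with both. OKO1 stood apart from the other libraries, with 47901 genes detected and a TMM factor of 1.83. Gadd45b itself, the targeted gene, was counted in every library, with 9.12, 17.5, 8.17 and 7.34 CPM in YWT, 12.7, 14.3, 5.98 and 5.14 in YKO, 10.1 to 15.5 in OWT and 2.84 to 6.94 in OKO. The libraries labelled YKO overlapped YWT, so YKO and OKO name libraries by their labels in every direction given below, and whether the counted reads lie outside the deleted part of the gene was not tested.

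The sequences just upstream of the RefSeq starts are given first, since the levels of several of these genes moved together from library to library. Of the 10 genes, 8 had an entry in the RefSeq promoter table of GRCm38.p6. The 250 bases before the start are written from 5′ to 3′ on the strand of the gene for the genes that followed Fos most closely (Fosb and Jun), for the phosphatase gene Dusp1 and for Klf6, the gene separated between ages in WT. Their positions were chr12:85473640-85473889 on the plus strand for Fos, chr7:19310046-19310295 on the minus strand for Fosb, chr4:95052223-95052472 on the minus strand for Jun, chr17:26508473-26508722 on the minus strand for Dusp1 and chr13:5861239-5861488 on the plus strand for Klf6. Capitals mark matches to TGACGTCA, TGACG, TGACATCA and GCGNGGGCG on either strand, and to TATAAA on the strand of the gene only.

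Fos: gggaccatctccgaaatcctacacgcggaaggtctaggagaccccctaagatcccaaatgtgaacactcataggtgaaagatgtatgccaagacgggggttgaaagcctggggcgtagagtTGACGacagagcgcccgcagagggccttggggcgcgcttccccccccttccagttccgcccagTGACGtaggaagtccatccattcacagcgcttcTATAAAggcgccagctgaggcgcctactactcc
Fosb: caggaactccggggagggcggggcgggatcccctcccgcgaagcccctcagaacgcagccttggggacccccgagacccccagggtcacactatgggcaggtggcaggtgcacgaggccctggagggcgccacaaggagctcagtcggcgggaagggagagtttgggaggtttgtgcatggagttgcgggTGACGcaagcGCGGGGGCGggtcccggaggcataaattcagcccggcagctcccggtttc
Jun: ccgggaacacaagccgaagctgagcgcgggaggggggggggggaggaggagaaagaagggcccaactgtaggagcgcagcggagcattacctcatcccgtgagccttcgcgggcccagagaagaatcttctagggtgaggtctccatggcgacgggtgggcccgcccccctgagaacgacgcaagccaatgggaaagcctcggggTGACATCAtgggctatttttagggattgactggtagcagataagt
Dusp1: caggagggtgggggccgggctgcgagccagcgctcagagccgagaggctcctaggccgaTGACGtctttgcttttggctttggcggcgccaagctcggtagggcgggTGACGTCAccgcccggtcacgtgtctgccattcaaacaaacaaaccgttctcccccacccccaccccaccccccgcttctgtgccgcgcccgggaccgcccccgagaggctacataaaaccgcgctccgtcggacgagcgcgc
Klf6: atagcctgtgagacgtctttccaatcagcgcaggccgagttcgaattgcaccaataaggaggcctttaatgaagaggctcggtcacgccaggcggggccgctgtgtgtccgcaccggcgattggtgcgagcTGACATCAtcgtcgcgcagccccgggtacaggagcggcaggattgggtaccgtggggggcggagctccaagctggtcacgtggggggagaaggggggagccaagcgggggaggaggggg

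The full cAMP response element TGACGTCA was found before Dusp1, at bases -143 to -136 from the start, and in no other of the 8 windows. It occurred in 1.55% of the 32851 windows of the same length. Its shorter form TGACG, which the full element holds on both strands, was found before 5 of the 8 genes (Fos, Fosb, Junb, Atf3 and Dusp1) and in 17.8% of all windows. Fos had it at bases -129 to -125 and at -66 to -62. TGACATCA, which differs from TGACGTCA by 1 letter and is a form that JUN and ATF proteins bind, was found before Jun at -45 to -38 and before Klf6 at -119 to -112, against 2.93% of all windows. The EGR motif GCGNGGGCG was found before Fosb, at -50 to -42 (4.7% of windows), and TATAAA before Fos, at -33 to -28 (7.59%). The AP-1 motif TGANTCA and the CArG box, which serum response factor binds, had no match in the 8 windows, against 6.75% and 1.47% of all windows, which says only that these letters are not in these windows. TGACG, TGACATCA and TATAAA were searched after the sequences had been seen, and each match is a description of letters, not of a bound site.

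On mm10, in the GENCODE M21 annotation, Fos (ENSMUSG00000021250.13) lies on the plus strand of chromosome 12 from 85473890 to 85477273, with 4 exons. Jun (ENSMUSG00000052684.4) lies on the minus strand of chromosome 4 from 95049034 to 95052222 and has a single exon. Junb (ENSMUSG00000052837.6) lies on chromosome 8 from 84974484 to 84978718 and Klf6 (ENSMUSG00000000078.7) on chromosome 13 from 5861482 to 5870394. The counts cover all exons of a gene symbol together, so coding and untranslated parts were not separated.

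Levels of different genes were compared per length, as CPM per kb of merged exons. Ier2, a nuclear protein gene of a single exon, was highest, with a median of 148 CPM per kb over the 19 libraries. Jund followed with 96.1, Jun with 85.4, Junb with 73.0 and Fos with 50.0 CPM per kb. Egr1, a zinc finger transcription factor gene, had 25.2, Dusp1, which encodes a phosphatase that inactivates MAP kinases, 24.4, and Klf6, a Krüppel-like factor gene, 17.1 CPM per kb. Fosb, at 1.16, and Atf3, at 0.361 CPM per kb, stood well below the other genes. Neighbours in this order overlapped widely: Jund exceeded Jun within 12 of 19 libraries, Egr1 exceeded Dusp1 within 10, while Klf6 exceeded Fosb within all 19. Of the exonic length of Jund, 52.6% overlaps the antisense gene Gm11175, and 7.28% of that of Jun overlaps Junos. Whether strand was used in counting is not given in the sources used here, so reads of such pairs cannot be told apart.

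**Figure D1:**
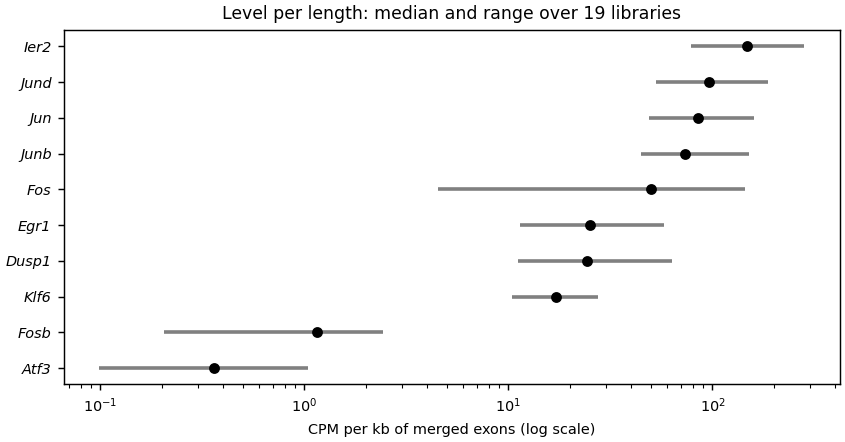
CPM per kb of merged exons (log axis) of each gene, with the median over 19 libraries as a point and the lowest to the highest library as a line. Ier2 is highest at a median of 148 and Atf3 lowest at 0.361, and the line of Fos is the longest among the genes above Fosb, from 4.52 to 144.

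Fos, the gene with the widest range, had 208, 166, 13.0 and 10.6 CPM in YWT1 to YWT4. In OWT it had 78.1, 118, 211 and 121 CPM, and in YKO 148, 41.8, 71.1 and 98.9. In OKO it ran from 63.1 to 339 CPM with a median of 146. The 4 YWT libraries thus held both 2 of the higher values and the 2 lowest of the whole series, 19.5-fold apart, and every group overlapped every other. The lowest value rested on 551 counts. The SD of log2(CPM) of Fos within groups was 1.21, and a larger one was found in 2.07% of genes whose mean log2(CPM) reached 5 (their median was 0.36).

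The same pair of YWT libraries was high for most of the other genes. With TMM factors applied, YWT1 and YWT2 exceeded both YWT3 and YWT4 in 9 of the 10 genes, all but Atf3. Of all tested genes, 19.1% showed that order. Scaled to library totals without TMM factors, YWT2 was below YWT4 for Junb, Egr1, Ier2 and Klf6 as well. It had 145 against 152 CPM for Junb, 61.1 against 70.9 for Egr1, 158 against 186 for Ier2 and 51.0 against 55.7 for Klf6. On that scale the order still held for Fos, Fosb, Jun, Jund and Dusp1. The summed level of the 10 genes was 1715 and 1664 CPM in YWT1 and YWT2 and 738 and 714 CPM in YWT3 and YWT4, which ranked 3, 4, 18 and 19 among the 19 libraries. Other measures of these libraries, with markers scaled to library totals without TMM factors, were split between the same pairs, with YWT1 and YWT2 lower. Summed HSC markers were 2808 and 2391 CPM in YWT1 and YWT2 and 3567 and 3317 CPM in YWT3 and YWT4, and summed granulocyte markers were 206 and 161 CPM against 278 and 493 CPM. Genes detected were 38122 and 35978 against 38980 and 42954, and TMM factors 0.976 and 0.692 against 1.02 and 1.22. With these TMM factors applied, as for the 10 genes, the HSC marker sums would not keep that split. Summed plasma cell markers were 1316 and 18881 CPM against 2038 and 2060 CPM, and the study's table gives YWT1 and YWT4 as male and YWT2 and YWT3 as female. The part of these measures in the split was not tested. The summed level ran from 1296 to 1642 CPM in OWT, from 843 to 1179 CPM in YKO and from 924 to 2065 CPM in OKO, with a median of 1497 in OKO.

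**Figure D2:**
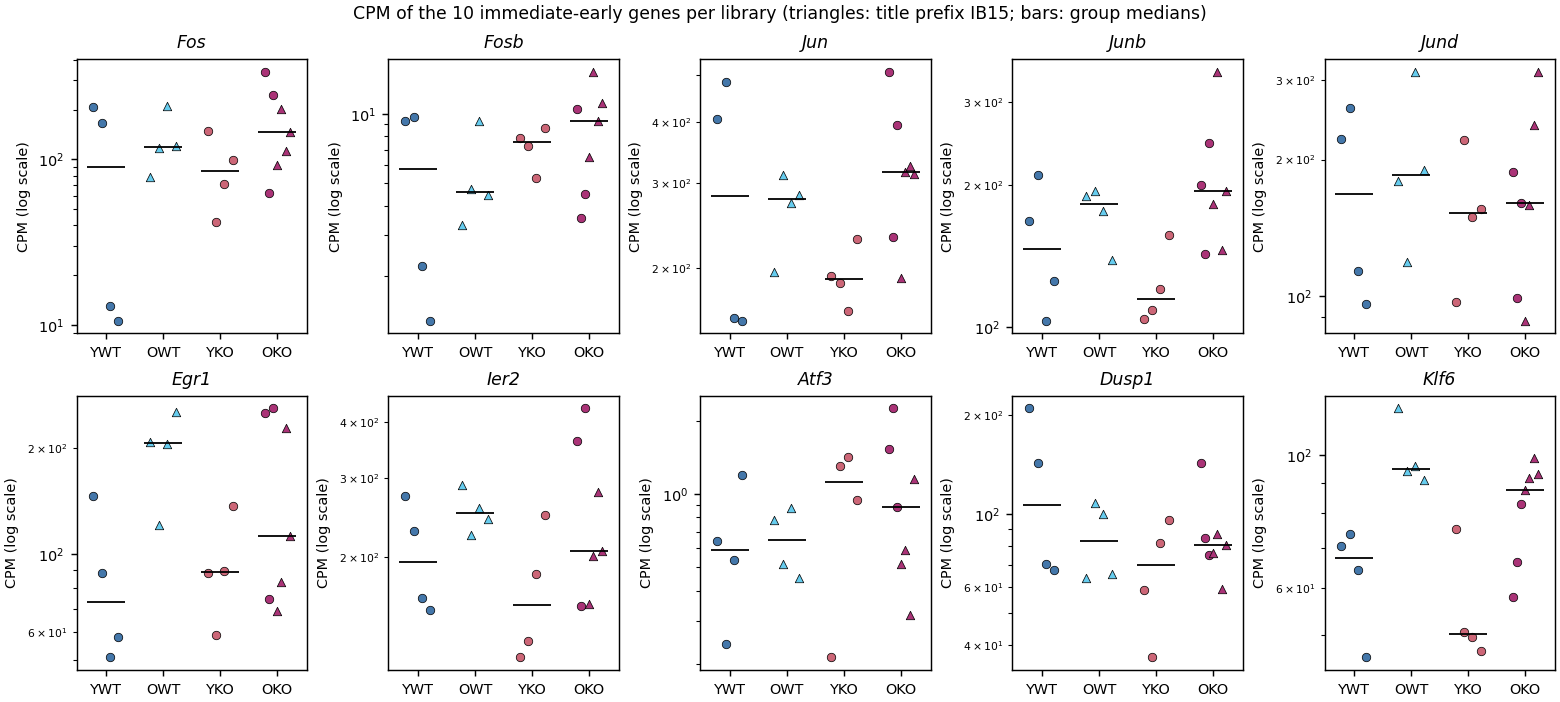
CPM (log axis) of each of the 10 genes in each library, by group, with circles for titles without and triangles for titles with the prefix IB15, and bars for group medians. YWT splits into a high and a low pair for most genes, and Klf6 lies higher in all OWT libraries than in any YWT library.

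**Figure D3:**
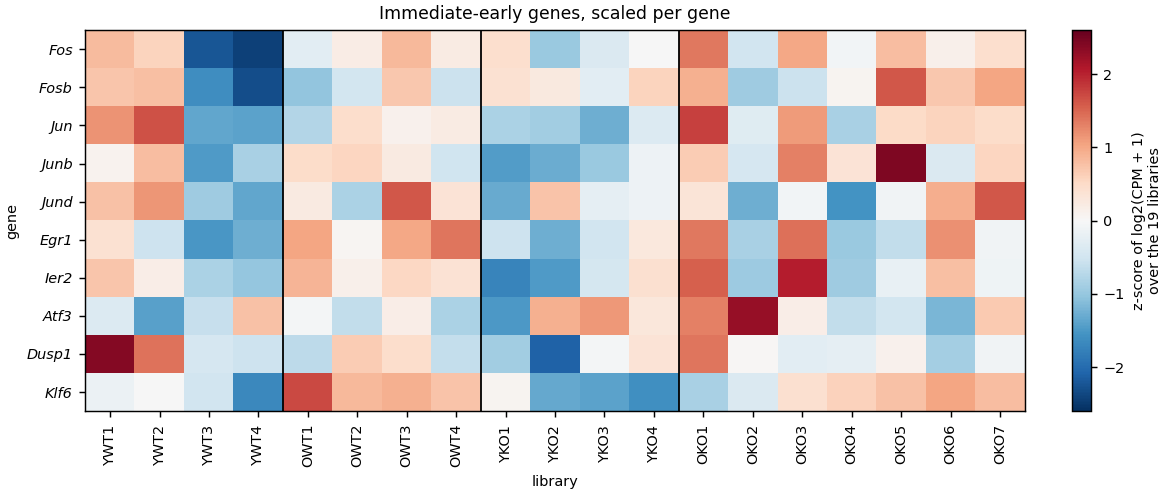
Each row is a gene and each column a library in the order of the groups, coloured by the z-score of log2(CPM + 1) over the 19 libraries. YWT3 and YWT4 are low in most rows, OKO1 and OKO3 are high for Fos, Jun, Egr1 and Ier2, and Atf3 follows another order.

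The relation of Fos to each other gene was measured over the 19 libraries on log2(CPM + 1), as 9 relations with p-values from 100000 permutations and Benjamini-Hochberg (BH) adjustment. Jun followed Fos most closely, with Pearson r of 0.79 (permutation adjusted p = 9e-05, where 1e-05 is the smallest p these permutations can give) and Spearman rho of 0.83. Fosb followed with r of 0.78 (permutation adjusted p = 0.000765), Egr1 with 0.67 (0.0027), Junb with 0.64 (0.00805) and Ier2 with 0.60 (0.0113). These 5 relations had an adjusted permutation p under 0.05 for Pearson r, and 7 of 9 had one for Spearman rho, with Jund and Dusp1 added. Jund (r = 0.47), Dusp1 (0.49) and Klf6 (0.44) missed it for Pearson r, with permutation adjusted p of 0.0507, 0.0507 and 0.0637. Atf3, a stress-induced gene of the ATF and CREB family, did not follow Fos (r = -0.17, rho = -0.21, permutation adjusted p = 0.478 and 0.399). What share of all tested genes follows Fos as closely over these libraries was not examined.

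Without YWT3 and YWT4, the 2 libraries farthest from the median of Fos, r was 0.78 for Jun, 0.62 for Ier2 and for Dusp1, 0.59 for Junb, 0.53 for Egr1, 0.50 for Fosb, 0.28 for Jund and 0.24 for Klf6. The fall was largest for Fosb (from 0.78), followed by Klf6 (from 0.44) and Jund (from 0.47). Within the 8 libraries with the prefix IB15, r was 0.77 for Fosb, 0.62 for Jun, 0.57 for Dusp1 and 0.45 for Junb, but -0.10 for Egr1, -0.073 for Ier2 and -0.44 for Klf6. Within the 11 libraries without it, r was 0.84 for Egr1, 0.66 for Ier2 and 0.52 for Klf6, beside 0.82 for Jun and 0.83 for Fosb. Atf3 had an r of 0.31 within the libraries with the prefix and -0.15 within those without it. The r values of Egr1, Ier2, Klf6 and Atf3 with Fos were thus not positive in both batches. Those of Jun, Fosb, Junb, Jund and Dusp1 were positive in both. These values within a batch carry no test. With group means subtracted, r was 0.89 for Jun, 0.80 for Fosb, 0.76 for Dusp1, 0.61 for Egr1 and 0.60 for Junb. It was 0.58 for Ier2, 0.51 for Jund, 0.31 for Klf6 and -0.33 for Atf3. Over all pairs of genes other than Atf3, r was above 0 in 35 of 36 (median 0.48), and the 9 pairs with Atf3 were all below 0 (median -0.096). With group means subtracted, r of Atf3 with Dusp1 was 0.082. The share of pairs with r above 0 among all tested genes was not examined.

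**Figure D4:**
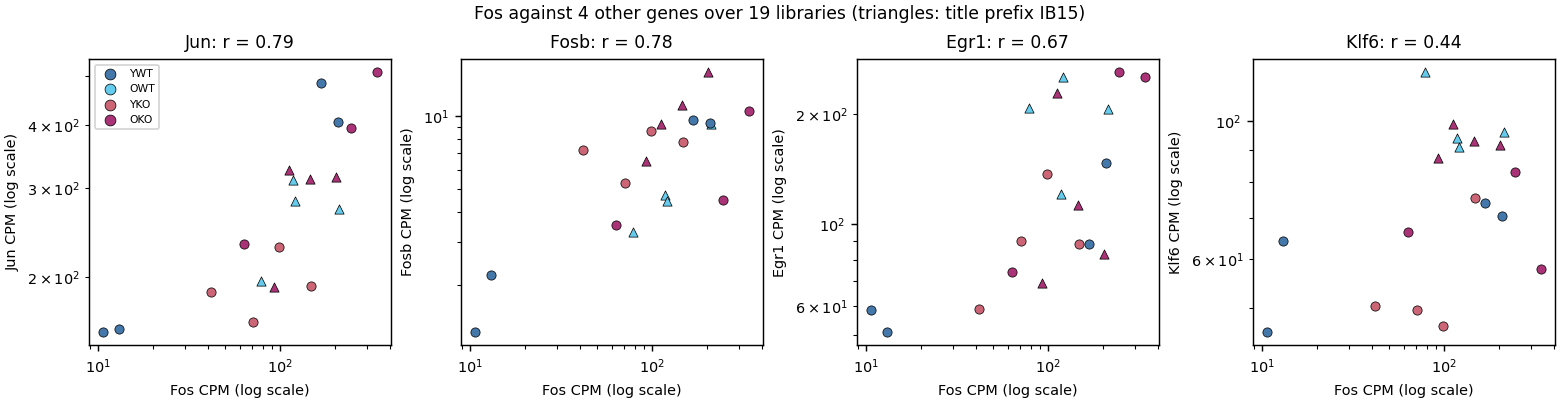
CPM of Jun, Fosb, Egr1 and Klf6 against CPM of Fos (both axes log), 1 point per library, coloured by group, with triangles for the prefix IB15. Jun and Fosb rise along Fos with r of 0.79 and 0.78 on log2(CPM + 1), and among the triangles Egr1 and Klf6 do not.

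Among 11296 other genes whose mean log2(CPM + 1) reached 3, those most like the mean z-score of the 10 genes over the 19 libraries were Junos (r = 0.88), Ppp1r15a (0.83), 9330020H09Rik (0.81), Fam241b (0.68), D830025C05Rik (0.67) and Coq10b (0.66). Junos, the antisense neighbour of Jun, shares exonic bases with it and ranged from 24.1 to 88.7 CPM. Ppp1r15a, also known as Gadd34, encodes a phosphatase subunit of the integrated stress response. It had 229.7, 150.6, 66.1 and 61.9 CPM in YWT1 to YWT4, the same high and low pairs as Fos. These r values carry no test, and the libraries differed in depth and batch.

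The first comparison, OWT vs. YWT, asked how age in WT HSCs moves these genes. By edgeR's quasi-likelihood test with BH adjustment, 0 of the 10 genes were called, against 0.00297% of all tested genes, where a call needed an adjusted p under 0.05 together with more than a 1.5-fold difference. An unadjusted p under 0.05 was found for 2 of the 10, both higher in OWT. Of all tested genes, 2.64% had one and were higher, and 1.74% had one and were lower. DESeq2 called 0 of 10 (0.725% of genes). Each share given for DESeq2 is of the genes to which it gave an adjusted p. The median log2 fold change of the 10 was 0.21, beside -0.046 over all tested genes, and ran from 0.028 without OWT3 to 0.39 without YWT2. Klf6 had 70.5, 73.8, 64.2 and 45.8 CPM in YWT and 120.0, 94.0, 96.0 and 91.0 in OWT. Each of the 4 OWT libraries exceeded each of the 4 YWT libraries, the single gene of the 10 for which any of the 4 comparisons showed no overlap, and 2.24% of all tested genes were separated in that direction and 1.9% in the other. Its log2 fold change was 0.66 with SE 0.22 (edgeR adjusted p = 0.701), and the exact two-sided permutation test gave p = 0.0286, the smallest that 4 against 4 allow, or 0.286 after BH adjustment over 40 tests.

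Egr1 had 147, 88.3, 50.9 and 58.3 CPM in YWT and 208, 121, 207 and 253 in OWT. Of the OWT libraries, 3 lay above every YWT library. Its log2 fold change was 1.20 with SE 0.44 (edgeR adjusted p = 0.858), and the exact permutation p was 0.0571, or 0.457 adjusted. Dusp1 had the lowest log2 fold change, -0.54 with SE 0.35, with 210.5 and 144 CPM in YWT1 and YWT2 and 64.1 to 108 CPM in OWT. It was -0.15 without YWT1 and -0.74 without YWT4. Fos had a log2 fold change of 0.41 with SE 0.68, which was 1.09 without YWT1 and 0.034 without YWT4. Jun, at 406, 485, 157 and 155 CPM in YWT and 196, 312, 272 and 283 in OWT, had -0.18 with SE 0.34. Since each OWT library carried the prefix IB15 and no YWT library did, no value within a batch could be given. In a fit with batch as a term, where the OKO libraries alone separate batch from age, the log2 fold change was 0.23 for Klf6 and 1.86 for Egr1, and 0 of 10 were called (0.0623% of tested genes). Summed granulocyte markers were higher in every OWT library, at 597 to 816 CPM against 161 to 493 CPM in YWT. Summed B cell markers, at 58.2 to 195 CPM in OWT and 236 to 466 CPM in YWT, and monocyte and macrophage markers, at 61.5 to 80.1 and 95.6 to 122 CPM, were lower in every OWT library. The part of these markers in the values was not tested. In such bulk samples, fewer cells of a type and less RNA per cell cannot be told apart.

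The second comparison, YKO vs. YWT, asked what the knockout label changes in young HSCs. Again 0 of the 10 genes were called by edgeR (0.0267% of tested genes) and 0 by DESeq2 (0.703%), and 1 of 10 had an unadjusted p under 0.05 (4.59% of tested genes). This was Dusp1, with 58.8, 36.7, 82.0 and 96.1 CPM in YKO against 210.5, 144, 70.6 and 67.8 in YWT. Its groups overlapped, the log2 fold change was -0.85 with SE 0.35 (edgeR adjusted p = 0.952), and the exact permutation p was 0.229. Without YWT1 its log2 fold change was -0.47. Summed monocyte and macrophage markers did not overlap between these groups, at 154 to 187 CPM in YKO and 95.6 to 122 CPM in YWT, and summed erythroid markers had a median of 4065 CPM in YKO and 977 CPM in YWT. Their part in these values was not tested. Jun had 192, 186, 163 and 229 CPM in YKO, all within the range of YWT, with a log2 fold change of -0.64 and SE 0.34. No gene of the 10 was separated between the groups in either direction, against 2.12% and 3.01% of tested genes separated upward and downward. Fos gave a log2 fold change of -0.14 with SE 0.68 in edgeR, whereas its mean log2(CPM + 1) was 0.75 higher in YKO, so the sign for Fos depended on the scale of averaging.

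The third comparison, OKO vs. YKO, addressed age in the knockout. All 10 log2 fold changes were above 0, from 0.074 for Atf3 to 0.93 for Fos, with a median of 0.58, beside a median of 0.23 over all tested genes, of which 61.8% were above 0. By edgeR 0 of the 10 were called, against 1.29% of tested genes, and 3 had an unadjusted p under 0.05 (15.8% of tested genes). DESeq2 called 2 of the 10, Junb and Klf6, where it called 9.32% of the 22532 genes to which it gave an adjusted p. The same pair was called by edgeR with upper-quartile scaling (3.2% of tested genes) and with a filter at a mean CPM of 5 (12.1%), and Ier2 alone with batch as a covariate (19.1%). No gene of the 10 was separated between these groups, against 1.12% and 1.48% of tested genes separated upward and downward.

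Junb, which encodes a JUN family partner of AP-1, had 104, 109, 120.3 and 157 CPM in YKO and 143 to 348 CPM in OKO, with a median of 194. Of the 7 OKO libraries, 5 lay above every YKO library. Its log2 fold change was 0.77 with SE 0.25 (edgeR adjusted p = 0.130). Jun had 163 to 229 CPM in YKO and 191 to 509 CPM in OKO, with a median of 315. In Jun 6 of 7 OKO libraries exceeded every YKO library, and its log2 fold change was 0.76 with SE 0.31 (edgeR adjusted p = 0.226). Klf6 had 75.2, 50.5, 49.6 and 46.9 CPM in YKO and 57.9 to 98.9 CPM in OKO, with a median of 87.4. In Klf6 5 of 7 OKO libraries exceeded every YKO library, and the log2 fold change was 0.57 with SE 0.19 (edgeR adjusted p = 0.147). For Junb, Jun and Klf6 alike the exact permutation test gave p = 0.0182, or 0.242 after adjustment over the 40 tests. Fos, at 63.1 to 339 CPM in OKO and 41.8 to 148 in YKO, had the largest log2 fold change of the 10 but also the largest SE, 0.63, with an edgeR adjusted p of 0.482.

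Both batches held OKO libraries, while YKO came from 1 of them. With the 3 OKO libraries without the prefix, which share the batch of YKO, edgeR called 3 of the 10 genes and 17.9% of all tested genes. These were Jun (log2 fold change 1.04, edgeR adjusted p = 0.0460), Junb (0.75, 0.0411) and Ier2 (0.96, 0.0393). TMM factors were 1.24 to 1.83 in those 3 OKO libraries and 0.847 to 0.957 in YKO. The part of this difference in the values was not tested. All 3 of those OKO libraries had more Jun than any YKO library, at 509, 232 and 394 CPM, and 14.3% of all tested genes were separated in that direction. The exact two-sided permutation test gave p = 0.0571, the smallest that 3 against 4 allow. With the 4 OKO libraries of the other batch, 0 of 10 were called (0.815% of tested genes), and the log2 fold changes were 0.84 for Junb, 0.76 for Klf6, 0.59 for Jun, 0.32 for Ier2 and -0.59 for Atf3. Markers of other cells differed between these groups as well. Summed B cell markers were 183 to 1449 CPM in YKO and 37.5 to 156 CPM in OKO, and summed erythroid markers 1628 to 4566 CPM in YKO and 78.5 to 2144 CPM in OKO, and their part in these values was not tested. Without the 3 libraries highest in plasma cell markers (YWT2, YKO1 and YKO2), Junb had a log2 fold change of 0.61, Klf6 0.79 and Dusp1 -0.016, and 0 of 10 were called (0.0569% of tested genes). The median of the 10 was then 0.40, below the 0.59 over all tested genes. With all 19 libraries and the filter at a mean CPM of 5, which Atf3 did not pass, the median was 0.94 for the members. It was 0.032 over all genes that passed that filter.

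The fourth comparison, OKO vs. OWT, asked what the knockout label changes in old HSCs. Here 0 of the 10 genes were called by edgeR (0.0327% of tested genes), 0 by DESeq2 (0.229%) and 0 had an unadjusted p under 0.05 (8.14% of tested genes). The median log2 fold change of the 10 was 0.15, beside 0.12 over all tested genes, and values ran from -0.35 for Egr1 to 0.67 for Fosb. That median was 0.41 with upper-quartile scaling (0.36 over all genes), 0.024 without OKO1, 0.0098 with the 4 OKO libraries that share the batch of OWT and -0.018 with batch as a covariate. Fosb had 3.31, 4.72, 9.29 and 4.46 CPM in OWT and 3.53 to 15.2 CPM in OKO, with a median of 9.28, and SE was 0.47. Egr1 had 69.1 to 260.4 CPM in OKO with a median of 113, and 4 of the 7 OKO libraries lay below all OWT libraries, with an SE of 0.38. Klf6 likewise had 4 of 7 OKO libraries below every OWT library, and its log2 fold change was -0.28 with SE 0.19 (edgeR adjusted p = 0.608). Summed granulocyte markers did not overlap between these groups, at 161 to 570 CPM in OKO and 597 to 816 CPM in OWT, and their part in these values was not tested. No gene was separated between the groups, against 0.46% and 0.359% of tested genes separated upward and downward. Within the batch that holds OWT and 4 OKO libraries, Fosb differed by 0.86 on log2(CPM + 1) with an exact permutation p of 0.0857, and 0 of 20 within-batch tests had an exact p under 0.05.

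Whether age moved these genes differently by genotype was tested as the interaction of genotype and age. By edgeR 0 of the 10 passed an adjusted p under 0.05 (0% of tested genes), 0 had an unadjusted p under 0.05 (4.62% of tested genes), and DESeq2 called 0 (0.0334%). The largest value was that of Jun, 0.94 with SE 0.45 (edgeR adjusted p = 0.811), followed by Dusp1 with 0.89 and SE 0.47. Jund, Ier2 and Atf3, like every other gene of the 10 but Klf6, overlapped between the groups in all 4 comparisons. Jund, an AP-1 gene often expressed without stimulation, had 222, 259.7, 114 and 96.2 CPM in YWT, 179.8, 119, 312 and 189 in OWT, 97.2, 221, 149.7 and 155 in YKO and 88.2 to 313 in OKO. Ier2 had 274, 229, 163 and 153 CPM in YWT, 289.8, 225, 258 and 243 in OWT, 119.9, 130.4, 184 and 248 in YKO and 156 to 429 in OKO. Atf3 had 0.641, 0.241, 0.536 and 1.20 CPM in YWT, 0.213, 1.30, 1.42 and 0.943 in YKO, 0.452 to 0.879 in OWT and 0.317 to 2.25 in OKO, on 4 to 121 counts per library, so that differences in Atf3 were limited by counting error as well.

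**Figure D5:**
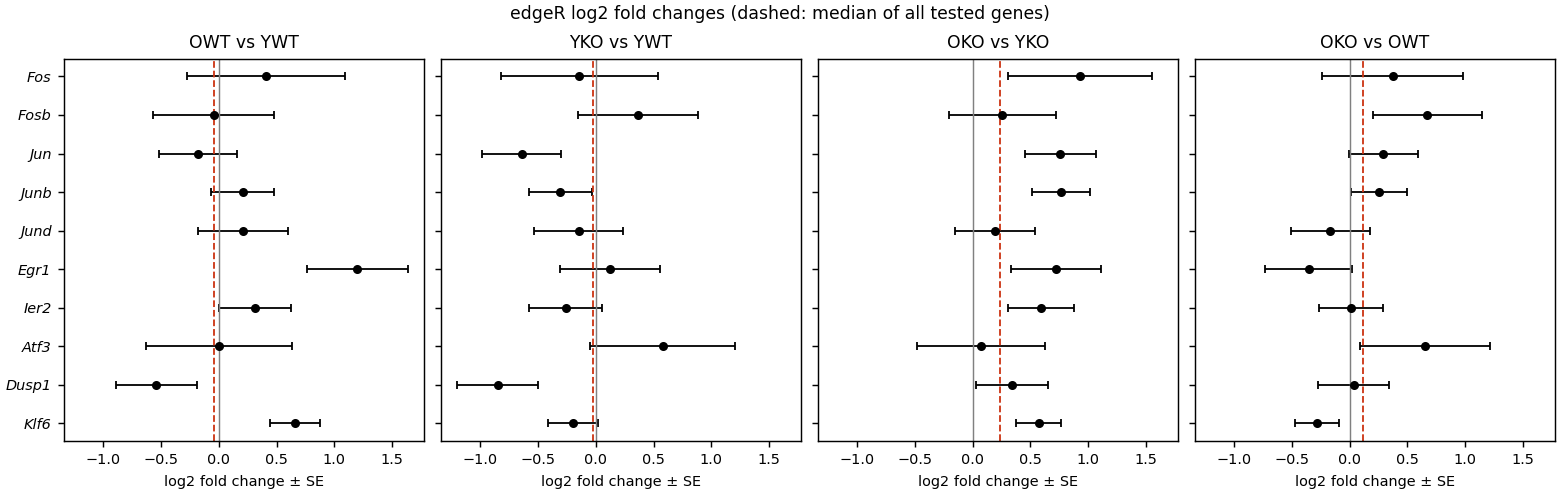
log2 fold changes of the 10 genes with SE from edgeR in the 4 comparisons, with the median of all tested genes as a dashed line. All 10 points lie above 0 in OKO vs. YKO, where the dashed line is at 0.23, and in the other comparisons they lie on both sides of 0.

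Other genes of the same pathways were read from the same fit. Of 36 further immediate-early genes, 3 rose and 3 fell in OKO vs. YKO, and 0 were called in the other comparisons. In OKO vs. YKO 0.597% and 0.692% of all tested genes were called upward and downward. Their median log2 fold change in OKO vs. YKO was 0.24, beside 0.23 over all genes. Socs3, an inhibitor of cytokine signalling, rose from a median of 12.8 CPM in YKO (highest 22.4) to a median of 46.0 CPM in OKO (lowest 23.8, highest 359.8) (log2 fold change 2.85, SE 0.72, edgeR adjusted p = 0.0498). Fosl2, a further FOS family gene, had 3.73 to 10.6 CPM in YKO and 11.2 to 108 CPM in OKO (2.53, SE 0.56, edgeR adjusted p = 0.0265). In both the lowest OKO library lay above the highest YKO library, as in 1.12% of all tested genes, though these genes are shown because they were called. Ier3 also rose (1.46, SE 0.36, edgeR adjusted p = 0.0449), and Zfp36l1, an RNA-binding protein gene, fell by 1.24 on the log2 scale (SE 0.24, edgeR adjusted p = 0.0125). Btg1 and Myc were the other two that fell, named after their values were seen, by 1.04 and 1.09 on the log2 scale. Without YWT2, YKO1 and YKO2 none of the 6 was called, with log2 fold changes of 2.56 for Socs3, 2.27 for Fosl2, 1.10 for Ier3, -0.69 for Zfp36l1, -0.25 for Btg1 and -1.06 for Myc. DESeq2 called 8 upward and 5 downward among the 36, where it called 9.32% of the genes to which it gave an adjusted p.

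Of 20 genes upstream of the immediate-early response (serum response factor, its cofactors, CREB factors and MAP kinases) and of 12 MAP kinase feedback genes of the DUSP, Sprouty and Spred families, 0 were called in any comparison by edgeR. In OKO vs. YKO, 3 of the 20 and 5 of the 12 had an unadjusted p under 0.05, beside 15.8% of all tested genes. DESeq2 called 0 of the 20 in any comparison, and of the 12 it called Dusp10, a phosphatase gene, upward in YKO vs. YWT (0.703% of genes) and downward in OKO vs. YKO (9.32%). Of 11 heat shock genes 0 were called by edgeR, with the lowest adjusted p, 0.0508, for Hspa1a in OWT vs. YWT, a gene named after its values were seen. Hspa1a, which encodes an inducible HSP70 chaperone, had 48.8, 30.1, 22.5 and 47.0 CPM in YWT1 to YWT4 and 0.578 to 1.27 CPM in OWT. Within YWT it did not follow the split seen for Fos. It was also below every YWT library in YKO, at 0.319 to 8.28 CPM, and in OKO, at 0.913 to 12.6 CPM. Its log2 fold change in YKO vs. YWT was -2.72 with SE 0.79. Each OWT library carried the prefix IB15 and no YWT library did. All 11 heat shock genes had a log2 fold change below 0 in OWT vs. YWT (median -0.57, beside -0.046 over all genes), of which 2 had an unadjusted p below 0.05 (4.38% of tested genes). DESeq2 called 2 of 11 downward there, Hspa1a and its near-identical copy Hspa1b (0.725% of genes), between which reads may be split, and edgeR called the same pair without YWT2, YKO1 and YKO2 (0.0129% of genes). DESeq2 also called Hspb1, a small heat shock protein gene, downward in YKO vs. YWT (0.703%) and upward in OKO vs. YKO (9.32%).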

How the data were processed

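RNA-seq libraries were made from sorted HSCs with the SMART-Seq v4 kit. The authors trimmed reads with Trim Galore 0.4.3 and cutadapt, aligned them by STAR (mm10, GENCODE M22) and deposited raw counts per gene symbol from featureCounts. Strand setting and counting of mates are not given in the sources used here. WGBS samples were not analysed here.

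Counts were filtered with filterByExpr, scaled by TMM and tested with the quasi-likelihood test of edgeR 4.0.16 (R 4.3.3) in 1 fit of 19 libraries with 1 mean per group. A call needed a BH adjusted p under 0.05 and more than a 1.5-fold difference. DESeq2 1.42.0 was an alternative, with other scalings, filters, batch, sex and replicate terms and each library left out. Exact permutation tests used log2(CPM + 1) (SciPy 1.17.1). Positions and lengths are from GENCODE M21, promoters from RefSeq. Fits were tested on simulated data. The 10 genes, the lists and the tests were chosen with earlier results of these data known. Named are the 10 genes, at most 4 called genes of each list per comparison with the largest change, the 6 genes most like the mean z-score, and Gadd45b. Btg1, Myc, Hspa1a, Hspa1b, Hspb1 and Dusp10 were named after their values were seen. Same-numbered libraries correlated above 0.1 in 5 of 24 pairs, so numbers were not treated as pairs. The result of a list of AP-1 partner genes is not reported here.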

Additional observations from a re-analysis of the deposited data

Results flagged for a closer look

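Klf6 in YKO1 lay far from the other YKO libraries, at 75.2 CPM with the nearest other YKO library at 50.5 CPM. On log2(CPM + 1) the gap was 0.843 of the range of the group. Of 40 groups of values examined in this way, 1 held such a library, where chance gives about 2. YKO1 had the lowest total, 22197555 counts, and without it the log2 fold change of Klf6 in OKO vs. YKO was 0.78 in place of 0.57.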

How the results depend on the processing

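The calls of edgeR on the 10 genes stayed at 0 in each comparison and in the interaction under each of the 19 fits with 1 library left out. In OKO vs. YKO, 2 of the 10 were called by DESeq2, 2 with upper-quartile scaling, 2 with a mean CPM of at least 5 (Junb and Klf6 each time), 1 with batch as a covariate (Ier2) and 3 with the OKO libraries without the title prefix (Jun, Junb and Ier2). These settings also called 9.32% (DESeq2, of the genes given an adjusted p), 3.2%, 12.1%, 19.1% and 17.9% of all genes tested. With the replicate number as a block, 0 of the 10 were called in each comparison, while the count over all genes in OKO vs. YKO was 1774 in place of 434. Of 16 libraries, 1 correlated best with its own number.

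Of the 1216 alternative values of the 40 log2 fold changes, 1131 kept their direction and call, 10 gained a call and 75 changed sign, none of them called. 22 of the 40 log2 fold changes never changed sign. The cause of the changes of sign was not tested.

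In OWT vs. YWT, Atf3 was at -0.059 with DESeq2, -0.11 with upper-quartile scaling, -0.058 with the size factors of DESeq2, -0.032 without a filter, -0.032 with the compared groups only, -0.027 with the replicate block and -0.28 without the 3 libraries highest in plasma cell markers. Jun was at 0.23 and Jund at -0.21 with batch as a covariate, Fosb at 0.18 with the replicate block, and Fosb at 0.37 and Jun at 0.16 without the 3 libraries. In YKO vs. YWT, Fos was at 0.091 with the replicate block. Without the 3 libraries, Fos was at 0.14, Junb at 0.047, Jund at 0.069 and Ier2 at 0.12.

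In OKO vs. YKO, Fosb was at -0.23 and Jund at -0.065 with batch as a covariate, and at -0.27 and -0.26 with the replicate block. Fosb was at -0.16 with the OKO libraries without the prefix, and Atf3 at -0.59 with those that carry it. Without the 3 libraries, Atf3 was at -0.17 and Dusp1 at -0.016. In OKO vs. OWT, Jund was at 0.036 with upper-quartile scaling and 0.066 with a mean CPM of at least 5. Ier2 was at -0.26, Atf3 at -0.033 and Dusp1 at -0.16 with batch as a covariate. With the OKO libraries that carry the prefix, Jund was at 0.024, Ier2 at -0.24, Atf3 at -0.0048 and Dusp1 at -0.13, and Egr1 was at 0.026 with those without it.

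With 1 library left out, the log2 fold change in OWT vs. YWT ran from -0.41 to 0.37 for Fosb, -0.39 to 0.16 for Jun, -0.061 to 0.49 for Jund and -0.28 to 0.46 for Atf3. In YKO vs. YWT it ran from -0.52 to 0.50 for Fos, -0.35 to 0.093 for Jund and -0.15 to 0.49 for Egr1. In OKO vs. YKO it ran from -0.00087 to 0.43 for Jund and -0.23 to 0.37 for Atf3. In OKO vs. OWT it ran from -0.36 to 0.14 for Jund, -0.15 to 0.12 for Ier2 and -0.12 to 0.19 for Dusp1. Without changing sign, 1 library moved Jun in YKO vs. YWT from -0.64 to -0.34 (without YWT2), and in OKO vs. OWT Fosb from 0.67 to 1.07 (without OWT3), Egr1 from -0.35 to -0.14 (without OWT4) and Klf6 from -0.28 to -0.18 (without OWT1). Upper-quartile scaling moved the median of all genes in OKO vs. YKO from 0.23 to 0.43 and that of the 10 from 0.58 to 0.77.

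Counts over all genes were the least stable. In OKO vs. YKO they ran from 102 without YKO1 to 1822 without OKO7, from 22 without the 3 libraries to 6420 with batch as a covariate, beside 2100 by DESeq2. The count was 1 in OWT vs. YWT (0 to 7 with 1 library left out, 135 by DESeq2), 9 in YKO vs. YWT (2 to 20, 140 by DESeq2) and 11 in OKO vs. OWT (1 to 11, 74 by DESeq2, 4350 with the OKO libraries without the prefix). Omission of YWT2, YKO1 and YKO2 was chosen after seeing the data. Groups of 4 limited the exact tests, and Atf3 was limited by its counts, as low as 4.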
